A study of Mus musculus with 43 samples.

Results

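The cyclophilins examined here were the 10 genes Ppia, Ppib, Ppic, Ppid, Ppie, Ppif, Ppig, Ppih, Ppil1 and Ppil2, out of 55416 genes in each count file. They were chosen by name, as rows present in all 43 files, after Ppia had been selected on its difference between genotypes in oligodendrocytes. That difference is therefore given below as a description, with no test. All 10 members were found in every file.

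The libraries held RNA of oligodendrocytes, oligodendrocyte precursor cells (OPCs), astrocytes and microglia of the cerebral cortex of 12 mice, in 6 littermate pairs that were 3 months old and of both sexes. Each pair joined a Rag2-/- knockout (KO) mouse, which cannot rearrange antigen receptor genes and so has no mature T or B lymphocytes, with an immunocompetent control. The controls of pairs 1, 2, 3 and 5 carried 1 inactive Rag2 allele (Rag2+/-), those of pairs 4 and 6 none (Rag2+/+), and the pair 6 mice differed in sex. There were 4 control and 4 KO libraries of oligodendrocytes (pairs 1, 3, 5 and 6), 6 and 5 of OPCs (no KO library of pair 5), and 6 and 6 each of astrocytes and microglia. The colony descended from the B6.Cg-Rag2tm1.1Cgn/J strain bred to C57BL/6J, so every KO mouse carried the same constitutive deletion in all tissues. Cells were taken from 1 suspension per mouse on antibody-coated dishes, with anti-CD45 for microglia, which also binds blood-derived macrophages.

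Cyclophilins are peptidyl-prolyl isomerases. They turn the bond in front of a proline between its cis and trans forms, a slow step in the folding of many proteins. Cyclophilin A, the product of Ppia, is the abundant cytosolic member and the target of the drug cyclosporin, and the complex of both inhibits the phosphatase calcineurin, which activates NFAT transcription factors. Cyclophilins B (Ppib) and C (Ppic) work in the secretory pathway, cyclophilin 40 (Ppid) is a co-chaperone of HSP90, and cyclophilin D (Ppif) sits in the mitochondrial matrix and regulates the permeability transition pore. Ppie, Ppig, Ppih, Ppil1 and Ppil2 encode nuclear proteins, most of them parts of the spliceosome. Ppia is also a common reference gene in RT-qPCR.

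The mouse genome carries many processed copies of some of these genes. A read from a stretch that occurs elsewhere without a difference cannot be placed by itself, though its mate may place the pair. Each member's main transcript was therefore cut into all windows of 50 bases, the length of each read of a pair, and each window was looked up in the genome (GRCm39, GENCODE M39 gene models). The shares of copied windows are not shares of pairs lost. Ppia (chr11:6365443-6369817, plus strand) had an exact copy elsewhere for 61.9% of its 1121 windows, at 42 places on 17 chromosomes. Every window of its coding sequence was copied, in 2 to 17 other places with a median of 6. No window that lay wholly in its 5′ UTR was copied, while windows that ran from there into the coding part were, and 427 windows were unique. Ppih (chr4:119157204-119177743, minus strand) was copied over 85.1% of its windows and over all of its coding sequence, at 6 places, with 112 unique windows. The other members were far less affected, at 18.3% for Ppid, 6.7% each for Ppig, Ppil1 and Ppil2, 2.5% for Ppib and 0% for Ppic, Ppie and Ppif. With windows of 100 bases the shares were 60.1% for Ppia, 83.9% for Ppih and 4.2% for Ppid. The first 60 coding bases of Ppia (exonic, chr11:6365911-6365970, plus strand) are printed with the same stretch of 3 annotated copies to show how little separates them at this stretch, with capitals for bases that differ from Ppia:
Ppia: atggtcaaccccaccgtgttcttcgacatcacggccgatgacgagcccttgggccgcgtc
Gm10123: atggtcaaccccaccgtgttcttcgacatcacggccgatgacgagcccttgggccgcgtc
Gm6061: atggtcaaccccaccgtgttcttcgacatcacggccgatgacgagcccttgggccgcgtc
Gm53055: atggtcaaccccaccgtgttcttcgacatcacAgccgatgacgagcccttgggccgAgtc

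Gm10123 (chr9:96777711-96777770, plus strand) matched all 492 coding bases of Ppia, and an identical run of 740 bases covered the whole coding sequence and most of the 3′ UTR. Gm6061 (chr3:122050377-122050436, plus strand) had 1 mismatch in 492 bases and Gm53055 (chr19:16142110-16142169, minus strand) had 2 mismatches in the 60 bases shown, but 205 over the 492 coding bases when set side by side with no gap allowed. For Ppih, the first 60 coding bases (chr4:119177612-119177671, minus strand) were the same in the copies Ppihl (chr5:44070515-44070574, plus strand) and Gm11585 (chr11:102014900-102014959, plus strand), and over 531 coding bases Ppihl had 1 mismatch and Gm11585 had 54 with no gap allowed:
Ppih: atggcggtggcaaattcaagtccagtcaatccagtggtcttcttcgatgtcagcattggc
Ppihl: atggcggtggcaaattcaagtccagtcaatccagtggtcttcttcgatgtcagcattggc
Gm11585: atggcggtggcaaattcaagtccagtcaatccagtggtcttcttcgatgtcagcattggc

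**Figure D1:**
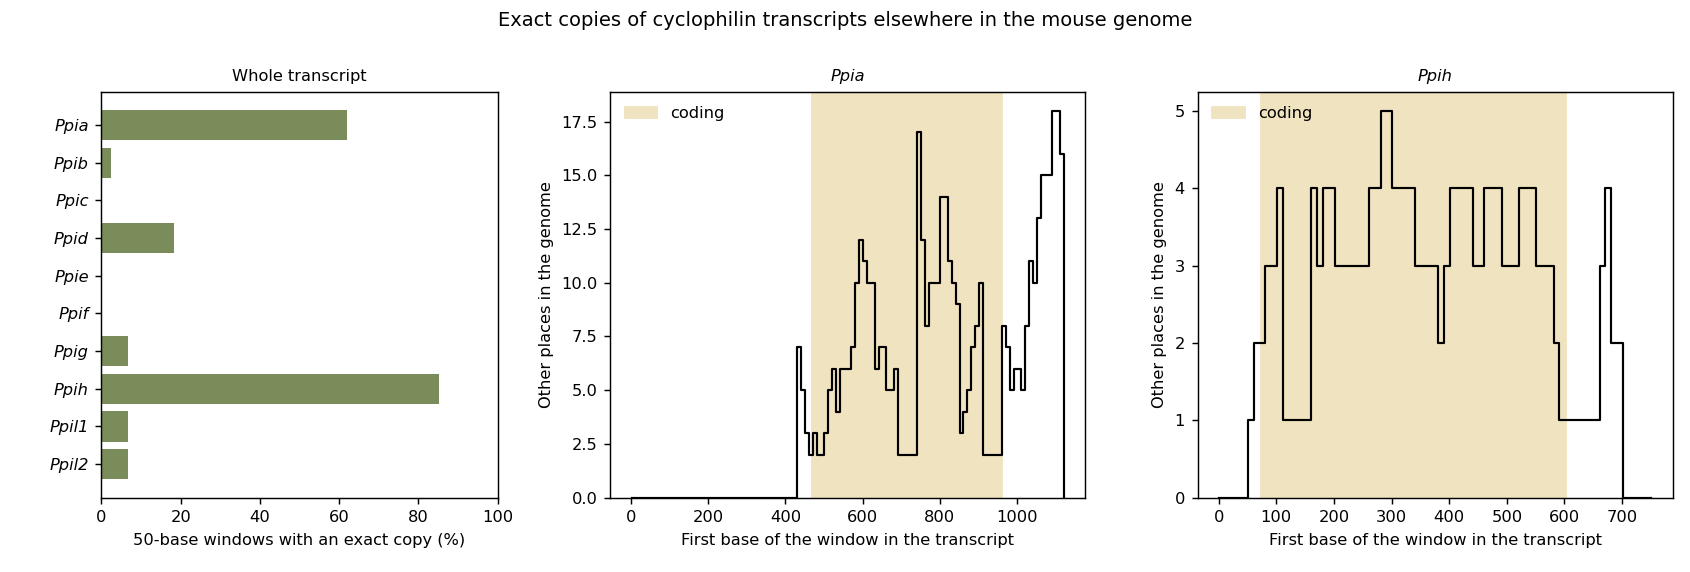
Share of each member's 50-base windows with an exact copy elsewhere (left, in percent), and the number of such places along the transcripts of Ppia and Ppih (middle and right, x axis: first base of the window, coding part shaded). Bars of Ppia and Ppih reach 61.9% and 85.1%, and the lines stay above 0 over the whole coding part of both.

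The counts do not show where in a gene the counted pairs lay. The transcripts cut into windows hold 1170 bases for Ppia and 803 for Ppih, while the annotated exons of these genes hold 3508 and 5856. Pairs from the copied parts may have gone uncounted, which would understate both genes by an amount that was not measured. Whether its size varied between libraries was not tested. The order of members by level was taken per kilobase of transcript. Where genes are set side by side in CPM or counts, the values are not corrected for length.

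The libraries held 6499417 to 23118497 counts on genes (median 10447042). Mitochondrial genes took 45.8% to 60.1% of them in oligodendrocytes, 6.75% to 11.7% in microglia and values between these in the other cell types. Rag2 itself had 0 counts in every KO library and 0 to 4 in the controls, too few to check the labels. For Iftap, which overlaps Rag2, control libraries gave 14 to 208 counts and KO libraries 0 to 2, matching the labels. The summed level of each cell type's own markers (in TMM-scaled CPM, which sets counts relative to library size) was 26349 to 36282 in oligodendrocytes, 6159 to 8424 in OPCs, 18559 to 22300 in astrocytes and 8911 to 11339 in microglia. Astrocyte libraries also held 3290 to 6214 CPM of oligodendrocyte markers. Lymphocyte markers summed to at most 12.3 CPM in any library. All libraries of 1 cell type were sequenced on 1 lane, so a difference between cell types and a difference between lanes cannot be told apart. In such bulk libraries fewer cells of a type and less RNA per cell cannot be told apart either.

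Across cell types the family did not move as a group. Ppia and Ppig were highest in microglia, Ppic was highest in astrocyte libraries, and Ppif was higher in astrocytes than in microglia. Ppib, Ppie and Ppih differed between no 2 cell types past the threshold. In the joint fit of all 43 libraries (edgeR quasi-likelihood test on counts with genotype and sex as terms, Benjamini-Hochberg adjusted p of at most 0.05 over 19209 genes), 2 of 10 members passed between oligodendrocytes and OPCs, where 40.4% of all genes did. Between oligodendrocytes and astrocytes 2 passed (51.5% of all genes), and between oligodendrocytes and microglia 5 (69.7%). Between OPCs and astrocytes 2 passed (44.2%), between OPCs and microglia 2 (71.7%) and between astrocytes and microglia 5 (72.0%). The share of members that passed was below that of all genes in each of the 6 comparisons. This was not tested, and the counts of several members were low. The median of all genes under this scaling lay between -0.14 and 0.19 on the log2 scale, with 0.19 between OPCs and microglia, 0.13 for astrocytes against microglia and for OPCs against astrocytes, and -0.14 for oligodendrocytes against OPCs.

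**Figure D2:**
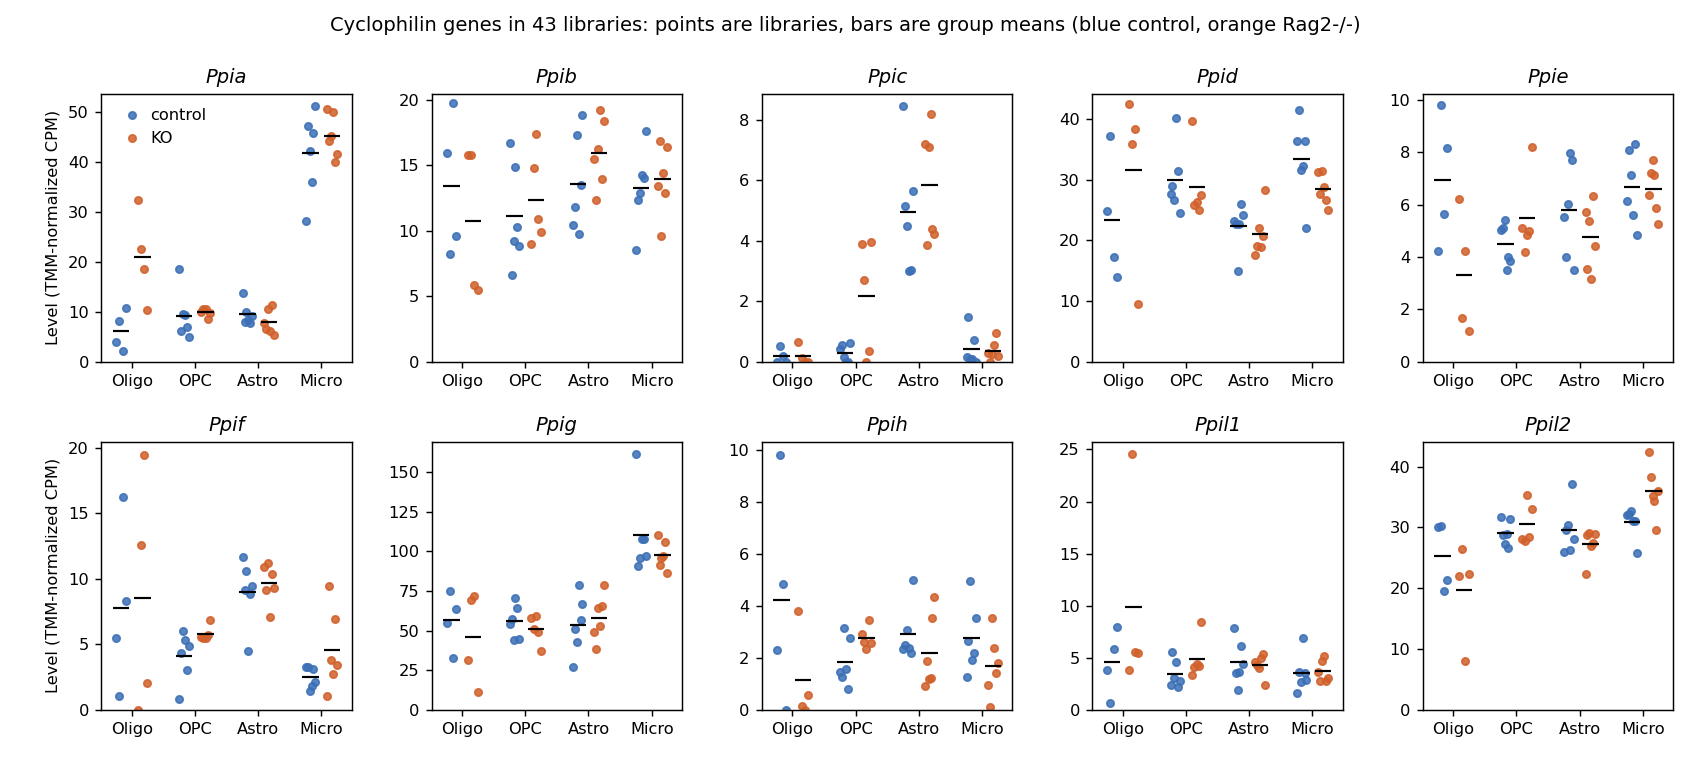
Level of each of the 10 members in each of the 43 libraries, as CPM by cell type and genotype, 1 point per library. The microglia points of Ppia (28.1 to 51.2 CPM) lie above all OPC and astrocyte points.

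Of the members counted in every library, Ppia had the largest ratio between its highest and lowest cell type mean, 5.01, while Ppig spanned more in CPM. In microglia it was 28.1 CPM at the lowest, 43.9 at the median and 51.2 at the highest of the 6 control libraries, and 39.8, 44.6 and 50.4 in the 6 KO libraries. Astrocyte controls gave 7.72, 8.70 and 13.7 CPM, and astrocyte KO libraries 5.30, 7.10 and 11.4. OPC controls gave 4.84, 8.07 and 18.4 CPM, and the 5 OPC KO libraries 8.45, 9.80, 9.94, 10.4 and 10.5. Microglia did not overlap with astrocytes or OPCs, but did with oligodendrocytes through the single KO library of pair 1, at 32.4 CPM. Genes whose ranges did not overlap made up 37.6% of all genes between astrocytes and microglia and 38.4% between OPCs and microglia. The mean over both genotypes was 43.4 ± 6.61 CPM in microglia (SD, n = 12), 13.6 ± 10.2 in oligodendrocytes (n = 8), 9.47 ± 3.51 in OPCs (n = 11) and 8.66 ± 2.39 in astrocytes (n = 12).

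The log2 difference of Ppia against microglia was -2.32 ± 0.24 (SE) in astrocytes (edgeR, adjusted p = 1.18e-11) and -2.21 ± 0.25 in OPCs (edgeR, adjusted p = 9.2e-11). Both differences passed the threshold under all 9 alternatives and without any single library. OPCs and astrocytes did not differ from each other in Ppia past the threshold, with a log2 difference of 0.11 ± 0.24. The oligodendrocyte values are the ones on which Ppia was selected, with low levels in the controls, so differences that involve them are given as a description. They were -1.80 against microglia (-2.98 among the control libraries alone), 0.41 against OPCs and 0.53 against astrocytes. Among controls alone the oligodendrocyte mean was the lowest, at 6.18 CPM against 9.17 in OPCs and 9.44 in astrocytes. The difference from OPCs also turned negative without TMM scaling, as given below. The count of 5 members between oligodendrocytes and microglia includes Ppia.

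Counts were also placed on annotated processed copies of Ppia. Of the pseudogenes in the count files that hold exact stretches of Ppia, 34 of 35 had at least 1 count, with 5432 counts over all libraries against 9665 on Ppia itself. Gm10123 alone held 2272 of them (41.8%), followed by Gm53055 with 699, Gm43008 with 540, Gm15621 with 391 and Gm4824 with 277. Gm6061 had 0 counts in every library. Some copies lie within other genes. Gm15621, which holds 4 of the windows of Ppia, lies within Rilpl2 (20475 counts). Gm53055, which holds 149, lies within Gnaq (42295 counts). Whether the counted pairs came from Ppia transcripts, from the copies or from genes around them was not tested.

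The summed copies were counted in the same libraries. Their mean was 18.3 ± 2.49 CPM in microglia controls and 16.5 ± 2.23 in microglia KO libraries, 10.2 ± 1.69 and 10.2 ± 1.92 in astrocytes, 6.73 ± 1.67 and 6.58 ± 1.07 in OPCs, and 12.8 ± 3.53 and 14.9 ± 4.16 in oligodendrocytes. Gm10123, whose coding part is identical to that of Ppia, was at 6.01 CPM in microglia and 5.15 in astrocytes, a log2 difference of -0.22 that did not pass (edgeR, adjusted p = 0.232). In the same comparison Gm43008 gave -0.42 ± 0.35 (edgeR, adjusted p = 0.285). Gm53055 at -1.85 ± 0.50 (edgeR, adjusted p = 0.00101), Gm15621 at -2.78 ± 0.97 (adjusted p = 0.00976) and Gm4824 at -1.12 ± 0.42 (adjusted p = 0.0173) were lower in astrocytes, as Ppia was. The part of surrounding genes in these differences was not tested. In OPCs, at 3.29 CPM, Gm10123 differed from microglia by -0.86 (edgeR, adjusted p = 2.45e-05). Of all counts on Ppia and its copies, the copies held 29.7% and 26.8% in microglia (control and KO), 51.8% and 55.7% in astrocytes, and 41.4% and 39.2% in OPCs. The same shares were 66.1% and 39.8% in oligodendrocytes, on whose Ppia values the gene was selected.

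In oligodendrocytes, where Ppia had been selected, the 4 control libraries of pairs 1, 3, 5 and 6 held 3.83, 8.11, 2.13 and 10.7 CPM (30, 62, 11 and 68 counts). The KO libraries of the same pairs held 32.4, 22.6, 18.5 and 10.2 CPM (298, 176, 114 and 71 counts). The KO library was the higher of its pair in pairs 1, 3 and 5. In pair 6, whose mice differed in sex, the values were 10.7 in the control and 10.2 in the KO mouse, and through this pair the groups overlapped. The means were 6.18 ± 3.90 and 20.9 ± 9.21 CPM (SD, n = 4 each). Gm10123 differed between these groups by -0.09 ± 0.74 on the log2 scale (edgeR, adjusted p = 0.999).

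Other cell types' markers in the same libraries overlapped between genotypes as groups. Those of OPCs were higher in the KO library of all 4 pairs, at 1142 and 1699 CPM (control and KO) in pair 1, 1964 and 2380 in pair 3, 1271 and 1556 in pair 5, and 766 and 822 in pair 6. Markers of mural cells and fibroblasts summed to 13.2 to 103.9 CPM in control and 9.12 to 43.8 in KO libraries, and those of endothelial cells to 5.62 to 33.2 and 3.21 to 23.05. Neuron markers summed to 612 to 3123 CPM in control and 577 to 2262 in KO oligodendrocytes, microglia markers to 315 to 1287 and 565 to 1193, and astrocyte markers to 1322 to 3660 and 1527 to 2670. Their part in the Ppia values was not tested.

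**Figure D3:**
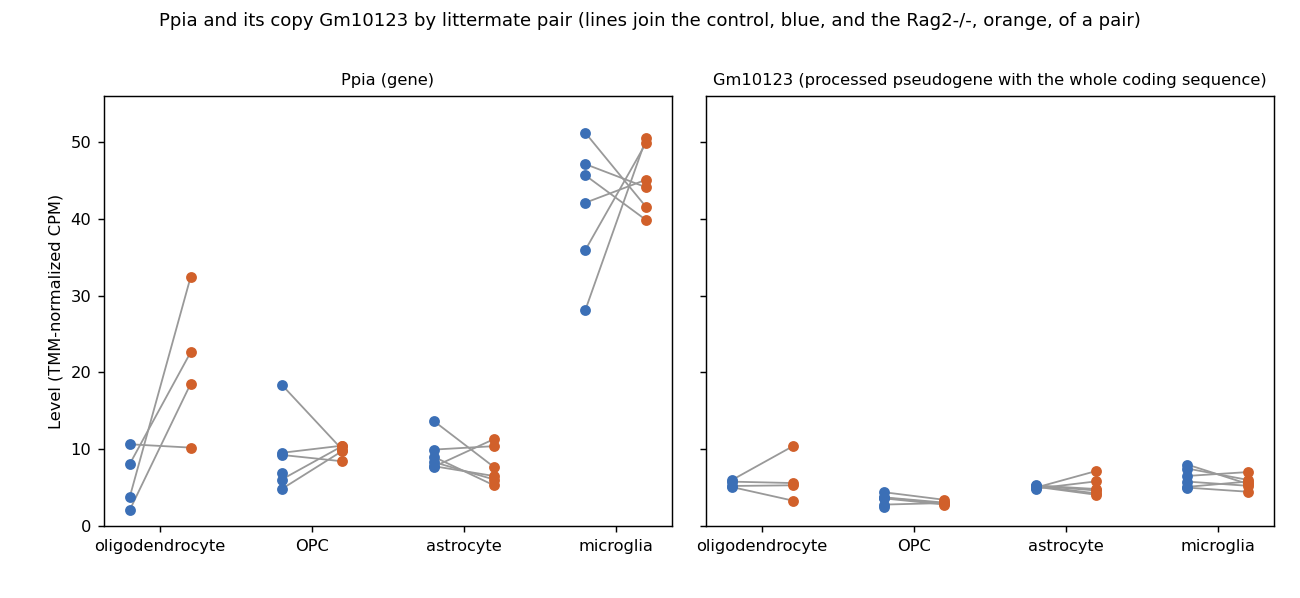
Level of Ppia (left) and of its copy Gm10123 (right) in each library, in CPM by cell type, with a line from the control (blue) to the KO library (orange) of each littermate pair. Lines of Ppia rise in 3 of 4 oligodendrocyte pairs and run both ways in the other cell types, and points of Gm10123 lie far below the microglia points of Ppia.

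In the other cell types the same gene did not differ by genotype past the threshold. The KO minus control log2 difference of Ppia was 0.11 ± 0.14 in microglia, 0.13 ± 0.30 in OPCs and -0.22 ± 0.25 in astrocytes (edgeR, adjusted p = 0.999, 1.0 and 1.0). The KO library was the higher in 3 of 5 OPC pairs, 2 of 6 astrocyte pairs and 3 of 6 microglia pairs. Group means were 9.17 ± 4.88 and 9.82 ± 0.82 CPM in OPCs (control and KO), 9.44 ± 2.26 and 7.89 ± 2.46 in astrocytes, and 41.7 ± 8.38 and 45.1 ± 4.31 in microglia. The OPC control mean held the single high value of replicate 1, 18.4 CPM.

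Set beside the genes commonly used with it as references, Ppia was among the less even ones by the pairs counted on the gene itself. Of the counts on Ppia and its copies, the copies held 51.8% and 55.7% in astrocytes (control and KO) but 29.7% and 26.8% in microglia. The part of this in the values below was not tested. The highest cell type mean of Ppia, in microglia, was 5.01 times its lowest, in astrocytes, and its coefficient of variation over 43 libraries was 83.3%. The latter includes the 8 oligodendrocyte libraries on whose values Ppia was selected, and is a description only.  Tbp, a basal transcription factor, spanned 1.14-fold, Sdha 1.79-fold, Ywhaz 2.71-fold and Gapdh 3.11-fold. Actb spanned 4.55-fold, Gusb 7.26-fold and B2m, a subunit of MHC class I that is high in microglia, 22.8-fold. Ppib, which serves the same purpose in some assays, spanned 1.27-fold with a coefficient of variation of 28.8%.

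Among the members of the secretory pathway, Ppib was nearly level. It is an ER protein that acts on collagen chains with the prolyl 3-hydroxylase complex. Its gene (chr9:65967381-65974142, plus strand) shares 26.4% of its exon bases with Snx22 on the other strand, and the library kit does not mark strand, so reads of both cannot be told apart there. The mean was 14.8 ± 3.30 CPM in astrocytes, 13.6 ± 2.71 in microglia, 12.1 ± 5.41 in oligodendrocytes and 11.7 ± 3.62 in OPCs. All neighbours in this order overlapped, and none of the 6 differences passed the threshold, the largest being -0.34 ± 0.19 on the log2 scale between OPCs and astrocytes (edgeR, adjusted p = 0.149). Between OPCs and astrocytes the difference passed without OPC KO 3 (-0.48, edgeR adjusted p = 0.0472) or OPC control 1 (-0.49, adjusted p = 0.0387), and between oligodendrocytes and astrocytes without oligodendrocyte control 5 (-0.49, adjusted p = 0.0494). Oligodendrocyte libraries had the widest spread, at 15.97, 8.24, 19.8 and 9.56 CPM in controls and 15.8, 15.8, 5.84 and 5.47 in KO libraries.

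Ppic (chr18:53539399-53551187, minus strand) had the largest ratio between cell type means of the members, 28.8 between astrocytes and oligodendrocytes. Its protein is a secretory pathway isomerase like cyclophilin B. All 12 astrocyte libraries held it, at 8.45, 5.16, 4.49, 2.99, 3.02 and 5.65 CPM in controls 1 to 6 and 7.21, 3.87, 7.11, 8.21, 4.37 and 4.22 in KO 1 to 6. Microglia libraries ranged from 0 to 1.48 CPM and oligodendrocyte libraries from 0 to 0.652, neither overlapping with astrocytes. Non-overlapping genes made up 37.6% of all genes for astrocytes against microglia and 2501 of 19209 genes for oligodendrocytes against astrocytes. Over all libraries 9 held 0 counts of Ppic, a count that at 95% confidence allows up to 3 counts, or 0.175 to 0.487 CPM in these libraries.

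The astrocyte mean of Ppic was 5.40 ± 1.92 CPM, against 1.15 ± 1.57 in OPCs, 0.389 ± 0.45 in microglia and 0.187 ± 0.26 in oligodendrocytes. On the log2 scale astrocytes were higher than microglia by 3.91 ± 0.72 (edgeR, adjusted p = 5.8e-06). Oligodendrocytes differed from astrocytes by -4.73 ± 0.91 (edgeR, adjusted p = 2.76e-05) and OPCs from astrocytes by -2.56 ± 0.69 (edgeR, adjusted p = 0.0021). All 3 passed under the 9 alternatives and without any single library. Markers of mural cells and fibroblasts (8 genes) were also higher in astrocyte libraries, where they summed to 112.9 to 157.5 CPM, than in microglia (15.9 to 46.2) or oligodendrocytes (9.12 to 103.9). In OPC libraries, where Ppic was lower than in astrocytes, they summed to 78.1 to 306 CPM. Of the 8 genes, Lum was at 0 in all astrocyte KO libraries and all oligodendrocyte libraries, and Tagln in all oligodendrocyte KO libraries. The part of such cells in the Ppic differences was not tested.

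Oligodendrocytes were also lower in Ppic than OPCs, by -2.16 ± 0.88 (edgeR, adjusted p = 0.0463), but this call was not firm. It was lost with the mouse as a block (adjusted p = 0.0933), with voom (adjusted p = 0.262) and among control libraries, where the difference was -0.63. It was also lost without any of 10 libraries, with adjusted p from 0.0549 to 0.139. These were oligodendrocyte controls 1, 5 and 6, oligodendrocyte KO 3, 5 and 6, OPC KO 1, 2 and 6 and OPC control 6. OPCs and microglia differed by 1.35 ± 0.70 (edgeR, adjusted p = 0.0797), which passed without microglia control 2 (1.79, adjusted p = 0.0195) or OPC control 4 (1.497, adjusted p = 0.0482).

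Within OPCs, Ppic values were split by library. The 6 controls held 0.424, 0.533, 0.153, 0, 0 and 0.605 CPM (7, 5, 2, 0, 0 and 9 counts in pairs 1 to 6). The KO libraries of pairs 1, 2, 3, 4 and 6 held 3.90, 2.69, 0, 0.345 and 3.96 CPM (71, 41, 0, 4 and 107 counts). KO libraries 1, 2 and 6 lay above every control, and KO 3 and 4 lay among them. Ppic was above the count filter in too few OPC libraries to enter the main test. Without the filter the log2 difference was 2.73 ± 0.79 and did not pass (edgeR, adjusted p = 0.124), and with a filter on a mean count of 10 the adjusted p was 1.0 (edgeR).

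Astrocyte markers in the OPC libraries moved in part with these values. They summed to 2087 to 3078 CPM in the controls and to 5783, 4038, 2423, 4047 and 3136 CPM in KO 1, 2, 3, 4 and 6. Markers of mural cells and fibroblasts summed to 78.1 to 223 CPM in controls and to 306, 206, 89.2, 187 and 163 in the same KO libraries. Endothelial markers summed to 19.8 to 59.6 CPM in controls and 28.5 to 101.8 in KO libraries. KO 1 was highest in the astrocyte and mural lists, while KO 6, highest in Ppic, was within or just above the range of the controls for both. The part of such cells in the Ppic values was not tested.

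**Figure D4:**
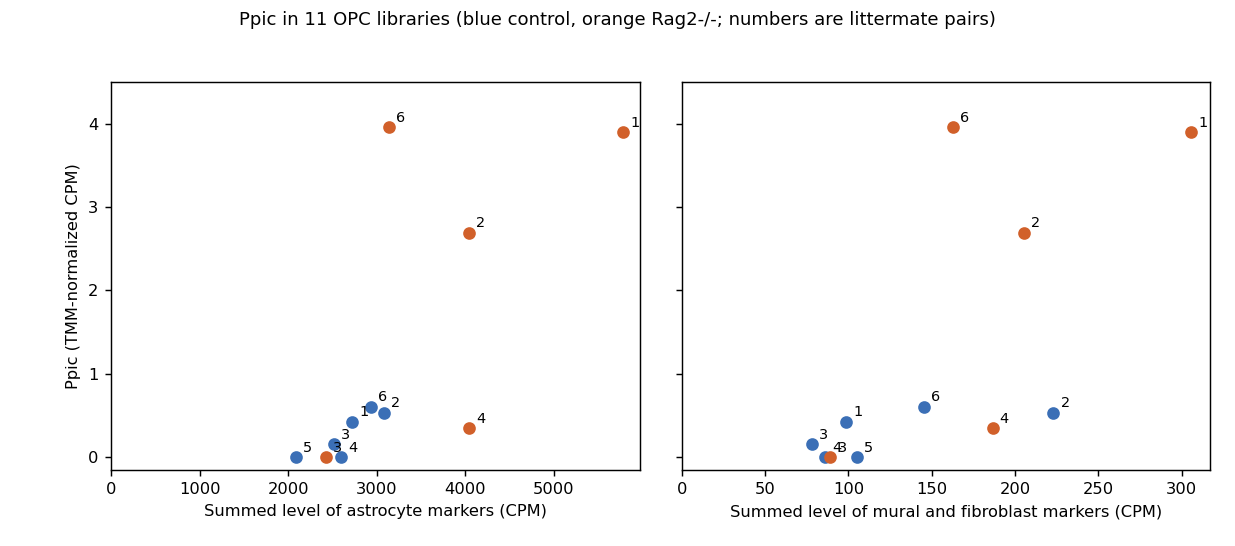
Ppic (y axis) in the 11 OPC libraries against the summed level of astrocyte markers (left) and of mural and fibroblast markers (right) in the same library, all in CPM, with controls in blue, KO libraries in orange and pair numbers beside the points. KO libraries 1, 2 and 6 reach 2.69 to 3.96 CPM of Ppic at marker sums from 3136 to 5783 CPM, and KO 4 lies at 0.345 CPM with a sum of 4047.

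The 10 ER folding partners on the list, which work in the same compartment as cyclophilin B, differed from microglia mostly downward. Against microglia, 9 of 10 were lower in oligodendrocytes and none was higher, 7 were lower in OPCs and 2 higher, and 7 were lower in astrocytes and 1 higher, where 69.7%, 71.7% and 72.0% of all genes passed in either direction. The median log2 difference was -1.25, -0.76 and -0.95, against 0.04, 0.19 and 0.13 over all genes. The ER chaperone Hspa5 (BiP) was lower in oligodendrocytes than in microglia by -3.02 ± 0.20 (edgeR, adjusted p = 2.42e-17), and the disulfide isomerase Pdia6 by -1.83 ± 0.14 (edgeR, adjusted p = 2e-15). Ppib did not share this difference past the threshold, at -0.18 ± 0.21 between the same cell types (edgeR, adjusted p = 0.444).

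Ppid (chr3:79498649-79512483, plus strand) encodes cyclophilin 40, which joins HSP90 complexes through its tetratricopeptide repeats. Its mean was 31.0 ± 5.40 CPM in microglia, 29.5 ± 5.55 in OPCs, 27.5 ± 12.7 in oligodendrocytes and 21.7 ± 3.70 in astrocytes. The ranges of all cell types overlapped. Astrocytes held 15.01, 22.99 and 25.9 CPM (lowest, median and highest) in controls and 17.5, 19.9 and 28.3 in KO libraries, and microglia held 22.1, 34.3 and 41.5 in controls and 25.03, 28.3 and 31.5 in KO libraries. Astrocytes were lower than microglia by -0.51 ± 0.16 on the log2 scale (edgeR, adjusted p = 0.00546), under all alternatives and without any single library.

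OPCs were higher in Ppid than astrocytes by 0.44 ± 0.17 (edgeR, adjusted p = 0.0313), which passed under 4 of 9 alternatives. It was lost without OPC KO 1 or 3, OPC control 1, 3, 4 or 5, astrocyte KO 1 or astrocyte control 3, with adjusted p from 0.0512 to 0.154. Oligodendrocytes against astrocytes gave 0.34 ± 0.19 (edgeR, adjusted p = 0.123), which passed without oligodendrocyte KO 6 (0.47, adjusted p = 0.0165) or control 6 (0.44, adjusted p = 0.0398). In oligodendrocytes Ppid was 24.8, 37.3, 17.2 and 13.95 CPM in controls and 42.6, 36.0, 38.5 and 9.51 in KO libraries of pairs 1, 3, 5 and 6, so both pair 6 libraries were the lowest of their groups.

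Of 7 genes on a list of HSP90 and its partners, 6 were higher in oligodendrocytes than in OPCs and 6 than in astrocytes, and 6 were lower in OPCs than in microglia, where 40.4%, 51.5% and 71.7% of all genes passed in either direction. Hsp90aa1, the stress-inducible HSP90, was higher in oligodendrocytes than in OPCs by 0.98 ± 0.11 (edgeR, adjusted p = 5.98e-10), and Hsp90ab1, the constitutive form, by 0.75 ± 0.09 (edgeR, adjusted p = 9.42e-09). Ppid gave -0.10 ± 0.19 in that comparison (edgeR, adjusted p = 0.708). The co-chaperone Cdc37 was lower in astrocytes than in microglia by -1.80 ± 0.11 (edgeR, adjusted p = 2.63e-19). In that comparison 5 of the 7 genes passed, all lower in astrocytes (72.0% of all genes passed in either direction), which was also the direction of Ppid.

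Ppif (chr14:25694522-25707332, plus strand), the mitochondrial member, was highest in astrocytes and lowest in microglia. Means were 9.34 ± 1.97 CPM in astrocytes, 8.15 ± 7.33 in oligodendrocytes, 4.87 ± 1.65 in OPCs and 3.54 ± 2.40 in microglia. Astrocyte values were 4.49, 9.28 and 11.6 CPM (lowest, median and highest) in controls and 7.08, 9.82 and 11.2 in KO libraries. Microglia values were 1.46, 2.62 and 3.30 in controls and 1.06, 3.58 and 9.47 in KO libraries, so that KO libraries of microglia reached into the astrocyte range. The log2 difference between astrocytes and microglia was 1.53 ± 0.40 (edgeR, adjusted p = 0.000662), with adjusted p from 2.04e-05 to 0.00453 under the alternatives. Opposite-strand genes share 37.2% of the exon bases of Ppif, so part of these counts could be theirs.

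Oligodendrocytes were the least even for Ppif. The controls held 5.49, 1.05, 16.3 and 8.31 CPM and the KO libraries 0, 12.6, 19.5 and 2.02 in pairs 1, 3, 5 and 6, where the 0 allows up to 0.326 CPM. Both pair 5 libraries were the highest of their groups. The difference from microglia, 1.25 ± 0.43 (edgeR, adjusted p = 0.00922), was 1.03 with the mouse as a block (edgeR, adjusted p = 0.0624), 0.27 without TMM scaling and 0.03 with voom, and passed in none of these 3. Between OPCs and astrocytes Ppif gave -0.93 ± 0.39, just short of the threshold (edgeR, adjusted p = 0.0526), and passed under 7 of 9 alternatives and without OPC KO 1 or 3, OPC control 3 or 4 or astrocyte control 4 (adjusted p from 0.0305 to 0.0491).

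Genes for the proposed pore and the inner membrane moved one by one. Of 9 listed, 8 passed between astrocytes and microglia, 5 of them higher in astrocytes, beside 72.0% of all genes. Slc25a4, the heart-type adenine nucleotide translocator, was higher in astrocytes than in microglia by 2.72 ± 0.09 (edgeR, adjusted p = 1.4e-28), and the outer membrane channel Vdac1 by 1.07 ± 0.10 (edgeR, adjusted p = 2.66e-13), while Vdac2 was lower by -0.59 ± 0.11 (edgeR, adjusted p = 5.36e-06). The other translocator, Slc25a5, was lower in oligodendrocytes than in microglia by -1.60 ± 0.14 (edgeR, adjusted p = 7.31e-14).

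Ppig (chr2:69552889-69584368, plus strand), whose SR-rich nuclear protein binds RNA polymerase II and splicing speckles, had the highest counts of the family on the longest transcript. In microglia it was 90.5, 102 and 161 CPM (lowest, median and highest) in controls and 86.5, 96.3 and 111 in KO libraries. Astrocytes held 26.7, 53.8 and 78.4 CPM in controls and 38.6, 58.4 and 78.4 in KO libraries, and OPCs 44.1, 55.8 and 70.7 in controls and 57.6, 51.0, 59.1, 49.3 and 37.3 in KO libraries. Oligodendrocytes held 54.9, 75.2, 32.6 and 63.8 CPM in controls and 31.2, 69.5, 72.1 and 11.2 in KO libraries. Every microglia library was above every library of the other cell types, where 28.1% of all genes did not overlap between oligodendrocytes and microglia.

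The microglia mean of Ppig, 103.9 ± 19.7 CPM, stood against 55.9 ± 15.7 in astrocytes, 53.6 ± 9.60 in OPCs and 51.3 ± 23.5 in oligodendrocytes. The log2 difference from microglia was -0.88 ± 0.18 in astrocytes (edgeR, adjusted p = 3.26e-05), -0.96 ± 0.19 in OPCs (edgeR, adjusted p = 1.34e-05) and -1.03 ± 0.21 in oligodendrocytes (edgeR, adjusted p = 2.96e-05). All passed under every alternative and without any single library. The lower 3 cell types did not differ from each other past the threshold, with adjusted p from 0.569 to 0.816 (edgeR).

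**Figure D5:**
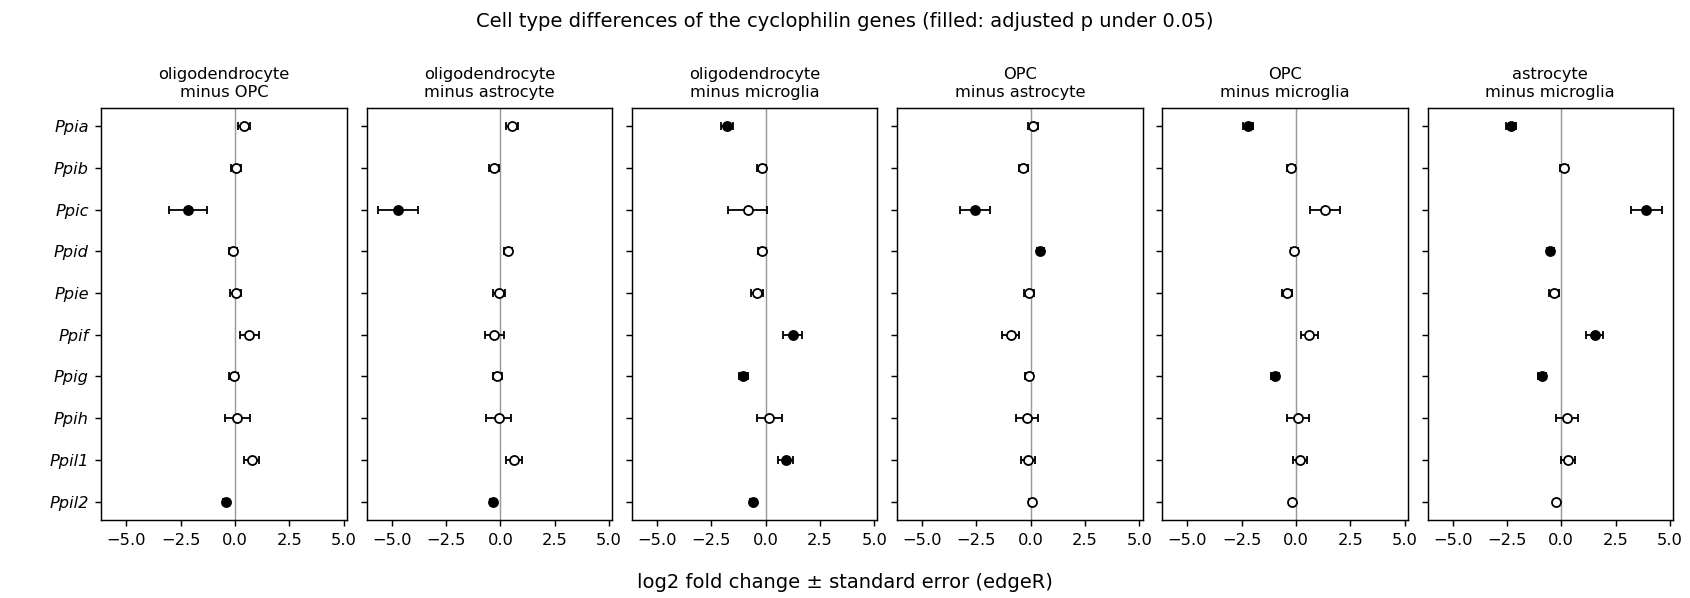
Log2 difference of each member in the 6 comparisons of cell types, with its SE, and a mark where the edgeR adjusted p passed 0.05. Ppia and Ppig lie left of 0 in all comparisons with microglia, and Ppic lies far from 0 in all comparisons with astrocytes. Any mark on Ppia in a comparison with oligodendrocytes is not read as a test, because Ppia was selected on those values.

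Ppil2 (chr16:16900219-16929128, minus strand) has a U-box, the mark of a class of ubiquitin ligases, and shares 20.5% of its exon bases with opposite-strand genes. It was the most even member, with a coefficient of variation of 19.5% over 43 libraries. Means were 33.4 ± 4.27 CPM in microglia, 29.8 ± 2.75 in OPCs, 28.4 ± 3.48 in astrocytes and 22.5 ± 7.12 in oligodendrocytes. Oligodendrocyte controls held 30.1, 30.2, 19.6 and 21.3 CPM and KO libraries 22.1, 26.5, 7.95 and 22.3, with the lowest value in KO 5.

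Oligodendrocytes were lower in Ppil2 than microglia by -0.58 ± 0.14 (edgeR, adjusted p = 0.00036), under all alternatives and without any single library. They were lower than OPCs by -0.41 ± 0.14 (edgeR, adjusted p = 0.0188) and than astrocytes by -0.35 ± 0.14 (edgeR, adjusted p = 0.0354). Both of these were lost with voom and among control libraries (log2 differences -0.22 and -0.32). The difference from astrocytes was also lost without oligodendrocyte KO 5 (-0.21, edgeR adjusted p = 0.112), oligodendrocyte control 5 or 6 or astrocyte control 5 (adjusted p = 0.0609, 0.051 and 0.0673). OPCs passed against microglia without OPC KO 3 (-0.29, edgeR adjusted p = 0.0401) or OPC control 1 (-0.28, adjusted p = 0.0477), and astrocytes without astrocyte control 5 (-0.28, adjusted p = 0.0428).

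Ppil1 (chr17:29469777-29483160, minus strand), a component of the activated spliceosome, was at 7.20 ± 7.31 CPM in oligodendrocytes, 4.42 ± 1.60 in astrocytes, 4.08 ± 1.76 in OPCs and 3.60 ± 1.40 in microglia. A single library stood behind the first mean. The oligodendrocyte KO libraries held 3.80, 24.5, 5.52 and 5.47 CPM and the controls 3.83, 0.654, 5.81 and 7.995 in pairs 1, 3, 5 and 6. Pair 3 thus held both the highest and the lowest value. Oligodendrocytes passed against microglia at 0.93 ± 0.35 (edgeR, adjusted p = 0.0165), and without KO 3 the difference was 0.38 (edgeR, adjusted p = 0.299). It was also lost without microglia KO 2 (adjusted p = 0.0502), with the mouse as a block (0.81, edgeR adjusted p = 0.0528), with voom (0.18), without the filter on low counts (0.79) and among controls (0.28), and turned to -0.04 without TMM scaling. Against OPCs it was 0.76 ± 0.36 (edgeR, adjusted p = 0.0839) and passed without oligodendrocyte control 3 (0.94, adjusted p = 0.0198) or OPC KO 6 (0.92, adjusted p = 0.0399), and against astrocytes without oligodendrocyte control 3 (0.81, adjusted p = 0.0338).

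Ppie (chr4:123017508-123033786, minus strand), which binds RNA and sits in the spliceosome, shares 37.7% of its exon bases with Bmp8b on the other strand. Its means were 6.64 ± 1.13 CPM in microglia, 5.27 ± 1.61 in astrocytes, 5.13 ± 2.97 in oligodendrocytes and 4.93 ± 1.26 in OPCs, with all neighbours overlapping. The largest difference was -0.42 ± 0.23 between OPCs and microglia (edgeR, adjusted p = 0.101), which passed under 4 of 9 alternatives and without OPC KO 1 or 6 (edgeR, adjusted p = 0.0443 and 0.0325). Ppih, a partner of the U4/U6 small nuclear ribonucleoprotein, lay between 2.23 and 2.68 CPM in all 4 cell types. Its range in oligodendrocytes was wide, with 2.30, 9.81, 4.84 and 0 CPM in controls and 3.80, 0.128, 0 and 0.576 in KO libraries, where a 0 allows up to 0.487 CPM. Like Ppia it may be undercounted, with 112 unique windows.

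Of 12 spliceosome partners listed, 6 passed between oligodendrocytes and microglia, all lower in oligodendrocytes, and 7 between astrocytes and microglia, 6 of them lower in astrocytes, below the shares of all genes that passed (69.7% and 72.0%). Prpf3, a U4/U6 protein of the particle that Ppih joins, was lower in oligodendrocytes than in microglia by -1.79 ± 0.22 (edgeR, adjusted p = 1.92e-09). Snw1, a binding partner of Ppil1, was lower by -1.09 ± 0.17 (edgeR, adjusted p = 5.22e-07). Ppih gave 0.18 ± 0.56 there (edgeR, adjusted p = 0.788).

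Per kilobase of the main transcript the order of members depended on the cell type. Counts were taken over all annotated exons, which exceed that transcript unequally. They hold 13859 bases for Ppil2 (transcript 3110), 9778 for Ppig (6508), 4059 for Ppib (1261) and 3508 for Ppia (1170). The order below therefore holds for this length only, and an order per kilobase of annotated exon was not computed. Ppia came first in microglia at 37.1 CPM per kb, ahead of Ppig at 15.97, Ppib at 10.8 and Ppil2 at 10.7. In OPCs Ppil2 (9.57), Ppib (9.26) and Ppid (8.93) led and Ppia was the fifth at 8.09. In astrocytes Ppib (11.7) led, followed by Ppil2 (9.14) and Ppig (8.59). Ppic was the lowest member per kb in oligodendrocytes, OPCs and microglia and Ppil1 in astrocytes. When only the part of each transcript without an exact copy was taken as its length, this order changed. Ppia (22.2 CPM per unique kb) and Ppih (20.2) then came first in OPCs, and Ppih (22.7) and Ppia (20.3) in astrocytes, ahead of Ppib at 12.5. In microglia Ppia stayed first at 101.7 CPM per unique kb, followed by Ppih at 19.9.

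Among 7 further genes with a cyclophilin domain, Ranbp2, a nuclear pore protein, and Nktr, a protein first described on natural killer cells, shared the higher level in microglia. Ranbp2 was lower in oligodendrocytes, OPCs and astrocytes than in microglia by -1.22 ± 0.12, -1.11 ± 0.11 and -1.10 ± 0.11 (edgeR, adjusted p = 4.74e-12, 2.62e-12 and 1.17e-12). Nktr was lower by -0.88 ± 0.10, -0.90 ± 0.09 and -0.94 ± 0.09 in the same order (edgeR, adjusted p = 6.75e-10, 1.78e-11 and 1.94e-12). Ppil6 was higher in astrocytes, by 4.74 ± 0.53 against microglia (edgeR, adjusted p = 1.03e-10), with -2.77 ± 0.57 for oligodendrocytes and -2.45 ± 0.48 for OPCs against astrocytes (edgeR, adjusted p = 7.02e-05 and 5.01e-05). Ppil6 was also higher in OPCs and oligodendrocytes than in microglia (2.29 ± 0.51 and 1.98 ± 0.55, edgeR, adjusted p = 9.85e-05 and 0.00156). Ppil3 was lower in oligodendrocytes than in astrocytes (-1.15 ± 0.37, edgeR adjusted p = 0.00754), and Ppil4 lower in oligodendrocytes than in OPCs (-0.65 ± 0.24, edgeR adjusted p = 0.0265). Ppwd1 and Cwc27 passed in no comparison. Counts of this list past the threshold were 1, 2, 4, 2, 3 and 4 of 7 in the order of comparisons given for the members. Of all genes 40.4%, 51.5%, 69.7%, 44.2%, 71.7% and 72.0% passed in the same order.

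The calcineurin and NFAT list, on which the cyclophilin A and cyclosporin complex acts, had 10 of 11 genes tested. All 10 passed between oligodendrocytes and microglia, 6 of them higher in oligodendrocytes, and 8 between OPCs and microglia, beside 69.7% and 71.7% of all genes. Rcan2, a calcineurin regulator, was higher in oligodendrocytes than in microglia by 6.32 ± 0.21 (edgeR, adjusted p = 1.9e-28), whereas Rcan1 was lower by -3.73 ± 0.24 (edgeR, adjusted p = 4.92e-18). Nfatc2 was lower in astrocytes than in microglia by -3.61 ± 0.29 (edgeR, adjusted p = 3.97e-15) and Nfatc1 by -2.82 ± 0.24 (edgeR, adjusted p = 2.53e-14). Bsg, or basigin, the receptor of secreted cyclophilins, was higher in astrocytes than in microglia by 0.66 ± 0.10 (edgeR, adjusted p = 2.38e-07) and lower in oligodendrocytes than in astrocytes by -0.97 ± 0.12 (edgeR, adjusted p = 2.62e-09). Astrocytes and OPCs did not differ in Bsg past the threshold.

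No member passed the test for genotype in OPCs, astrocytes or microglia. Fits were made within a cell type, with genotype and sex as terms. In oligodendrocytes 0 of the 8 members tested other than Ppia passed, beside 0.0% of 13802 genes (467 at an unadjusted p under 0.05, and 205 and 13 genes by DESeq2 on all genes and on those past the filter). Because the family had been selected on this contrast, nothing is read from that count. In OPCs 0 of 9 passed (0.00592% of all genes, 679 at an unadjusted p under 0.05), in astrocytes 0 of 10 (0.00679%, 423) and in microglia 0 of 9 (0.00667%, 435). DESeq2 and voom gave 0 members in these 3 cell types too. Outside oligodendrocytes the smallest unadjusted p among members was 0.0811 for Ppil2 in microglia, where KO libraries were higher by 0.22 ± 0.12 (edgeR, adjusted p = 0.999) and in 5 of 6 pairs. Next came Ppih in OPCs at 0.71 ± 0.42 (unadjusted p = 0.115 and adjusted p = 1.0, edgeR).

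No member had control and KO libraries that did not overlap in any cell type, where the share of all genes that did was 0.13% for microglia, 0.14% for astrocytes, 0.39% for OPCs and 2.35% for oligodendrocytes. Microglia KO libraries were lower in Ppid in 5 of 6 pairs (-0.23 ± 0.14), in Ppig in 5 of 6 (-0.14 ± 0.13) and in Ppih in 5 of 6 (-0.66 ± 0.48), and higher in Ppif in 5 of 6 (0.59 ± 0.37), none past the threshold (edgeR, adjusted p = 0.999 for each). Ppil2, given above, and Ppic, which was below the count filter there, were also higher in 5 of 6 pairs, and Ppih was lower in 5 of 6 astrocyte pairs (-0.70 ± 0.48, edgeR, adjusted p = 1.0). The microglia means of Ppic ran the other way, at 0.414 CPM in control and 0.364 in KO libraries. The median log2 difference over the members tested was 0.03 for microglia, 0.17 for OPCs and -0.11 for astrocytes, beside -0.01, -0.01 and 0.00 over all genes.

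Whether the genotype difference of a member changed from OPCs to astrocytes to microglia was tested with interaction terms, leaving out oligodendrocytes. Of 10 members 0 passed, as did 0.0% of 20146 genes (1077 at an unadjusted p under 0.05). Voom called 0 members and 1 gene in all. Ppic had the smallest unadjusted p at 0.0431 (edgeR, adjusted p = 0.916), and without the filter on low counts its adjusted p was 0.123 (edgeR). It rests on the OPC libraries described above.

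Between female and male mice 0 members passed in any cell type. For Ppia in oligodendrocytes this is not read as a test, because Ppia was selected on those values. Over all genes 0.0467% passed for microglia, 0.0407% for astrocytes, 0.0296% for OPCs and 0.0362% for oligodendrocytes, with 588, 991, 726 and 1136 genes at an unadjusted p under 0.05. Ppif in microglia had the smallest unadjusted p among members, 0.0119, with a female minus male log2 difference of 1.02 ± 0.37 (edgeR, adjusted p = 1.0). Ppic in astrocytes followed at -0.65 ± 0.31 (unadjusted p = 0.0501 and adjusted p = 0.742, edgeR). None of the other gene lists held a gene that passed by genotype, by sex or by the interaction of genotype with cell type.

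The genes whose level ran most like that of a member over the 43 libraries are given by Pearson's r of log2(CPM + 1), as a description. For Ppia these were Fbxw11 (r = 0.909), Clta (0.898) and Col27a1 (0.897), all highest in microglia. For Ppic they were Gm31614 (0.923), Gm13325 (0.918) and Kirrel2 (0.908). Ppig ran with Mafg (0.831), Nipa2 (0.826) and Mfsd1 (0.824), and Ppil2 with Ano6 (0.843), Adsl (0.836) and Bud31 (0.819). The other members had no such close runners. The best were 0.735 for Ppid (Hltf), 0.692 for Ppif (Xpo5), 0.676 for Ppih (BC065397), 0.665 for Ppie (Mrm3), 0.644 for Ppib (Gtf3c2) and 0.545 for Ppil1 (Gm37543). Between members the highest r was 0.570, for Ppia with Ppig, followed by 0.562 for Ppid with Ppig. These points share cell types and sequencing lanes, so that any gene with a difference between cell types takes part.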

How the data were processed

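RNA of immunopanned cortical glia was amplified to cDNA and sequenced as read pairs, in 43 libraries. The authors aligned the reads with STAR (2.7.8a) to GRCm39 and counted them per Ensembl gene with HTSeq, whose mode and strand setting are not given in the sources used here. The deposited files hold raw counts per gene, without normalization, and reads aligned to several places were not counted. The summary rows that name no gene, 33.5% to 52.0% of all counts per library, entered neither library sizes nor tests. Per library 6499417 to 23118497 counts remained on genes.

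CPM were computed with TMM scaling over all genes of the joint fit (edgeR 4.0.16, limma 3.58.1 and DESeq2 1.42.0 in R 4.3.3, with Python 3.11.15 for tables). Genotype and sex were fitted per cell type, and cell types jointly over all libraries with terms for genotype and sex, using the quasi-likelihood test of edgeR after filterByExpr (minimum count 10, minimum total 15), two-sided, with Benjamini-Hochberg adjustment over all genes tested and a threshold of 0.05. SE were taken as the log2 difference divided by the root of F. The fits were tested on simulated data, where the fit for genotype in oligodendrocytes was exempt from the required recovery of changed genes. How many true differences the fits would miss at these sample sizes is not given here. Of 55416 gene identifiers 54749 were found in GENCODE M39, from which positions and sequences come. A count of 0 was taken to allow up to 3 counts (95% confidence), for counting error only. No libraries of a group agreed within sampling noise (chi-square per gene of at least 7.45).

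The members and gene lists were chosen with earlier results of these data known. Named were all 10 members, called genes of the list of further cyclophilin domain genes, at most 4 genes per comparison with the smallest adjusted p from each other list, the 3 genes most like each member by Pearson's r, and at most 5 annotated copies of Ppia with the most counts. Gm6061 and the copies of Ppih were named for their sequence, after their values were seen. Tbp, Ppwd1, Cwc27, Rilpl2 and Gnaq were named outside these rules. Replicate numbers mark littermate pairs, and libraries of 1 mouse share its suspension. The mean correlation of deviations within pairs was 0.106 for microglia, 0.155 for astrocytes, 0.119 for OPCs and 0.12 for oligodendrocytes, beside -0.022, -0.03, -0.024 and -0.039 between other libraries. Within a cell type each mouse gave 1 library, so p-values for genotype and sex measure the spread between mice. These fits had no term for the littermate pair. The main cell type and interaction fits held several libraries per mouse, with no term for the mouse. Their p-values measure the spread between libraries, which are not all independent. Alternatives were other scalings, filters and tools (DESeq2, limma voom), the pair or mouse as a block, control libraries only, Rag2+/- controls only, and each library left out.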

Additional observations from a re-analysis of the deposited data

Results flagged for a closer look

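Of 80 groups of 4 to 6 libraries examined (10 members in 4 cell types and both genotypes), 12 held a library that stood apart from the others by Dixon's criterion, which chance meets in about 1 of 20 groups. Among OPC controls, replicate 1 held 18.4 CPM of Ppia where the others held 4.84 to 9.55. In OPC KO libraries, replicate 6 stood apart for Ppie (8.21 CPM against 4.2 to 5.11), Ppif (6.88 against 5.48 to 5.69) and Ppil1 (8.40 against 3.35 to 4.37), and replicate 1 for Ppid (39.7 against 24.995 to 27.5). Of the oligodendrocyte KO libraries, replicate 3 held 24.5 CPM of Ppil1 (others 3.80 to 5.52) and replicate 1 held 3.80 CPM of Ppih (others 0 to 0.576). Astrocyte libraries that stood apart were control 3 for Ppid (15.01 CPM against 22.7 to 25.9), control 6 for Ppih (4.99 against 2.17 to 3.07) and KO 1 for Ppil2 (22.3 against 26.985 to 29.01). Microglia control 1 held 161 CPM of Ppig where the others held 90.5 to 107.7, and microglia control 6 held 25.9 CPM of Ppil2 where the others held 31.0 to 32.8. In the comparisons between cell types, leaving out the library that stood apart ended the call of Ppid between OPCs and astrocytes (OPC KO 1 or astrocyte control 3) and of Ppil1 between oligodendrocytes and microglia (oligodendrocyte KO 3). Without OPC KO 6, Ppie passed between OPCs and microglia and Ppil1 between oligodendrocytes and OPCs.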

How the results depend on the processing

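The calls of Ppia in OPCs and astrocytes against microglia, of Ppig in the other 3 cell types against microglia, of Ppic against astrocytes, of Ppid and Ppif between astrocytes and microglia and of Ppil2 between oligodendrocytes and microglia passed under all 9 alternatives and in every fit without a library. Counts of members past the threshold moved elsewhere, and the cause was not tested. Between oligodendrocytes and OPCs (2 members) they were 7 without TMM scaling, 0 with voom and 0 among control libraries, where all genes past the threshold went from 7753 to 13442, 7066 and 5351. Between oligodendrocytes and astrocytes (2) they were 5 without TMM scaling and 1 among control libraries. All genes past the threshold there went from 9899 to 11591 and 7386. Oligodendrocytes against microglia (5, of which 2 higher) gave 3 with voom and 6 without TMM scaling, all of these lower in oligodendrocytes. All genes past the threshold there went from 13390 to 12841 and 14633. OPCs against astrocytes (2) gave 4 with voom, where all genes past the threshold went from 8488 to 10411. OPCs against microglia (2) gave 4 with DESeq2 size factors, with DESeq2 on all genes and with mitochondrial genes left out of scaling. All genes past the threshold there went from 13772 to 13780, to 16318 of 38901 tested, and to 13769. Astrocytes against microglia (5) gave 7 without TMM scaling, 7 with voom and 6 with DESeq2 on all genes. All genes past the threshold there went from 13836 to 13848, to 15300 and to 16323 of 38901 tested. For genotype in oligodendrocytes, the contrast the family was selected on, the count was 1 with DESeq2 on all genes, and nothing is read from it.

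Without TMM scaling the median of all genes itself shifted, to -1.19 for oligodendrocytes against OPCs and -0.93 against microglia. There the differences of Ppia (-0.64), Ppib (-1.01) and Ppie (-1.03) between oligodendrocytes and OPCs and of Ppil1 between oligodendrocytes and microglia (-0.038) turned negative. Members short of the threshold changed sign there too, among them Ppif (-0.43), Ppih (-0.89) and Ppil1 (-0.27) between oligodendrocytes and OPCs, and others in each of the other 5 comparisons.

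With the mouse as a replicate block, 1 member passed between oligodendrocytes and OPCs (Ppic lost) and 3 between oligodendrocytes and microglia (Ppif and Ppil1 lost). The littermate pair as a block left the count at 0 for genotype in OPCs, astrocytes and microglia, and no other member's call changed. The count was 0 in oligodendrocytes too, where nothing is read from it because the family was selected on that contrast.

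Leaving out 1 library at a time gave 1 to 3 members for oligodendrocytes against OPCs, 1 to 3 against astrocytes and 4 to 5 against microglia. It gave 1 to 3 for OPCs against astrocytes, 2 to 3 for OPCs against microglia, 5 to 6 for astrocytes against microglia, and 0 for genotype, sex and interaction. Nothing is read from the 0 for genotype in oligodendrocytes, the contrast the family was selected on, or from Ppia in the sex fit there. Members with few counts (Ppic, Ppih, Ppie and Ppil1) limit what can be seen.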
